A study of Mus musculus with 3 samples.

Results

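The enzymes described here build and cap the sugar chains of the T cell surface. They are the glycosyltransferases and carbohydrate sulfotransferases whose gene symbols begin with St3gal, St6gal, St8sia, Gcnt, B3gnt, B3galt, B4galt, B4galnt, Galnt, Mgat or Chst, or with Fut and a digit. The symbols were read from probe sets that carry exactly 1 gene symbol, and where a gene had several, the one of highest mean level over the arrays stood for it. This gave 99 genes of 18193 named genes, covered by 196 probe sets, and 1 of the 99, Fut4-ps1, is a pseudogene. RNA came from CD4+CD25- T cells, taken from the lymph nodes and spleens of female mice on the BALB/c background, aged 6 to 8 weeks. In all 3 groups the mice lacked both Stat6, the transcription factor of IL-4 signalling, and T-bet (Tbx21), the transcription factor of Th1 cells, and cells with these genes intact were not analysed here. All cells were cultured for 2 days on plate-bound anti-CD3 at 5 µg/ml with anti-CD28 at 1 µg/ml. The groups received IL-6 at 10 ng/ml plus TGFβ at 5 ng/ml (IL-6/TGFβ), IL-6 at 10 ng/ml plus IL-23 at 10 ng/ml (IL-6/IL-23), or TGFβ at 5 ng/ml alone (TGFβ). Each group is 1 array, the labels do not say how many mice it holds, and the values below therefore describe 3 arrays with no replicate check and no p-value.

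Sugar chains on cell surface proteins and lipids are assembled stepwise in the Golgi. The GALNT enzymes start mucin-type O-glycans on serine or threonine, the MGAT enzymes set the branches of N-glycans, and galactosyltransferases and N-acetylglucosaminyltransferases extend both into lactosamine chains. Sialyltransferases, fucosyltransferases and sulfotransferases then cap the ends, and these caps decide which selectins, galectins and Siglecs can bind. On activated T cells such caps are best known as selectin ligands, which slow the cells on inflamed vessel walls, and as structures that allow or hinder galectin binding.

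Levels are quantile-normalized array intensities in arbitrary units, so a level can be compared between arrays for 1 gene but not between genes. A floor of 52.3 was set from genes restricted to other tissues, and lower values were raised to it before ratios were taken. Where 1 of the arrays compared was at this floor, the ratio is a bound and the true difference may be larger. Ratios are on the log2 scale. A gene is called higher or lower where the ratio reaches 2-fold and the brighter array exceeds the floor. For error, only the disagreement of log2 ratios among probe sets reading the same gene could be estimated. Its SD, taken from the median absolute deviation, was 0.23 for IL-6/TGFβ over TGFβ, 0.29 for IL-6/TGFβ relative to IL-6/IL-23, and 0.30 when IL-6/IL-23 was set over TGFβ, over 3849, 3819 and 3827 genes. This spread leaves out differences between cultures, mice and arrays.

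As deposited, array medians were 28.1 (IL-6/TGFβ), 17.8 (IL-6/IL-23) and 35.8 (TGFβ), and the transferrin receptor control had 3'/5' ratios between 2.49 and 2.65. All 8 T cell markers were above the floor on all 3 arrays, and Cd4 read 716 (IL-6/TGFβ), 904 (IL-6/IL-23) and 1333 (TGFβ), while none of 4 B cell, 3 dendritic cell or 2 erythroid markers was above it. Of 3 NK cell markers 2 were above it on at least 1 array, Nkg7 and Klrd1, with Ncr1 at the floor. Of 6 myeloid markers 2 were, Mpeg1 and Csf1r, with Itgam, Cd14, Adgre1 and Lyz2 at the floor. Nkg7 read 51.6 (IL-6/TGFβ), 51.5 (IL-6/IL-23) and 230 (TGFβ), and Mpeg1 read 25.7, 21.9 and 153 in the same order. The other detected marker of each list was highest with IL-6/TGFβ instead. Klrd1 read 53.0, 26.1 and 19.4, and only the first of these was over the floor, and barely. Csf1r read 79.4, 40.1 and 63.2. The summed level of the NK cell list was 105, 79.3 and 251, and that of the myeloid list 155, 136 and 282. For the T cell list the sum was 22452, 27327 and 22164, lowest with TGFβ, although Cd4 was highest there. Both CD8 markers were above the floor on all arrays, with sums of 184, 294 and 285. In bulk samples fewer cells of a type and less RNA per cell cannot be told apart. The deleted genes gave signal on every array, Stat6 223, 191 and 259 and Tbx21 118, 205 and 190, and with the deleted part of each gene not given in the labels these values check nothing.

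The promoters of 4 genes, chosen after their values were seen, are printed first to show the sequence at the starts of genes described below: 3 with large ratios (Gcnt2, St8sia6 and Galnt3), and St8sia4, whose IL-6/TGFβ level was 2-fold or more under both other arrays. They are RefSeq windows of GRCm38.p6, 250 bases before to 50 after a transcription start, printed 5′ to 3′ on the gene's strand. Gcnt2 has 3 annotated starts, and it is known to make several transcripts that differ in their first exon. Capitals mark matches on either strand to TTCNNNGAA, the letters bound by STAT factors that IL-6 and IL-23 activate, CAGAC, which holds the SMAD-binding letters of TGFβ signalling, or TGANTCA, an AP-1 site; no matches to different motifs overlapped in these windows.
Gcnt2 first start, chr13:40859518-40859817, plus strand: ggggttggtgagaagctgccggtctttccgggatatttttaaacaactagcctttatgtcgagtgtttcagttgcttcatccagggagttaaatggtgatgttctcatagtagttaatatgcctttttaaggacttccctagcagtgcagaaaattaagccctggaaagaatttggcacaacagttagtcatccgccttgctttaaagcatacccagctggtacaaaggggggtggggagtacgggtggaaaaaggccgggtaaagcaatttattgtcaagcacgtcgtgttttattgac
Gcnt2 middle start, chr13:40886508-40886807, plus strand: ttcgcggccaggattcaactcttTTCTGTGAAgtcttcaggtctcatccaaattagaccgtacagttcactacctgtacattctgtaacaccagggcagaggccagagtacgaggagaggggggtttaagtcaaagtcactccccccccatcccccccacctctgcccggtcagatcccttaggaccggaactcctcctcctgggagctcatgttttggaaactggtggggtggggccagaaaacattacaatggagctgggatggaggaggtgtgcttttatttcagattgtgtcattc
Gcnt2 last start, chr13:40917384-40917683, plus strand: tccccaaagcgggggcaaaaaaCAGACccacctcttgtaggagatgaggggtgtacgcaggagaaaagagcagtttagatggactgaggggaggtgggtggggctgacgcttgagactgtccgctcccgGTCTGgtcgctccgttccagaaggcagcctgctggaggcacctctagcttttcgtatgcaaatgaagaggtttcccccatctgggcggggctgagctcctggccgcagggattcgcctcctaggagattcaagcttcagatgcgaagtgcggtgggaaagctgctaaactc
St8sia6, chr2:13793471-13793770, minus strand: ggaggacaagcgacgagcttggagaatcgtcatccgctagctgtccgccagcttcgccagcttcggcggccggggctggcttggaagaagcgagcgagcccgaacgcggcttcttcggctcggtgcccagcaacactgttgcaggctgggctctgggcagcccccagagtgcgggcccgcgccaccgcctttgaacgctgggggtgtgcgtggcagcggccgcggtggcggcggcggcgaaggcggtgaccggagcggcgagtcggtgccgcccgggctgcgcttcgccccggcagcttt
St8sia4, chr1:95667545-95667844, minus strand: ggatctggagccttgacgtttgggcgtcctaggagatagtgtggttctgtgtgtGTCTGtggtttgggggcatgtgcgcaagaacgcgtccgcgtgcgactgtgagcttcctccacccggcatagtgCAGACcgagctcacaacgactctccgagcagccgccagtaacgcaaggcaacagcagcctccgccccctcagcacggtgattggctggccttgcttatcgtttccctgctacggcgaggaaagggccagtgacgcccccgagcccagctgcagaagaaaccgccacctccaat
Galnt3, chr2:66124744-66125043, minus strand: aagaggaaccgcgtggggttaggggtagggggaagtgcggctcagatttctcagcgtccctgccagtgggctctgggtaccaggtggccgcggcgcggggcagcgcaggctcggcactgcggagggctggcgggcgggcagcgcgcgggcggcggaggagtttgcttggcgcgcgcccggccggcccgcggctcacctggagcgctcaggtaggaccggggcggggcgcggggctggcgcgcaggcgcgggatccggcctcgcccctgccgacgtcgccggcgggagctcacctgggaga
The middle Gcnt2 window held 1 STAT match, the last held 2 CAGAC matches, and the first held no match to any of the 3. The St8sia4 window held 2 CAGAC matches, and those of St8sia6 and Galnt3 held none of the 3. Of 32851 RefSeq windows of this length, 8.30% held TTCNNNGAA, 49.6% CAGAC and 7.81% TGANTCA. A window was found for 15 of the 18 genes called in at least 1 comparison, and of their 21 windows 2 held TTCNNNGAA, those of B4galt1 and of the middle Gcnt2 start, 10 held CAGAC and 1, of St6gal1, held TGANTCA. The windows of St8sia6 and Galnt3 were 72.0% and 76.7% G or C, against a median of 52.7% over all windows, and that of the first Gcnt2 start was 44.7%. The matches are a description of letters, and a window without one says only that these letters are not in it.

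Of the 99 genes, 52 (52.5%) were above the floor on at least 1 array, close to the 52.7% of all genes. Of these 52, 37 were above it on all 3 arrays and 15 on 1 or 2 arrays. All 6 St3gal genes were above the floor, as were 10 of 18 Galnt genes, 6 of 10 Mgat genes and 4 of 7 B4galt genes. The other families had Fut 3 of 9, St6galnac 2 of 6, Chst 7 of 14, B3gnt 4 of 9 and B3galt 2 of 5. The rest were St8sia with 3 of 6, Gcnt with 2 of 4, St6gal with 1 of 2 and B4galnt with 2 of 3. The 47 genes at the floor on every array included Fut4, which together with Fut7 can make selectin ligands in leukocytes, and Chst4, a sulfotransferase of lymph node vessels. At this array's sensitivity nothing can be said of their order.

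At least 1 comparison called 18 of the 52 detected genes (34.6%), against 11.8% of 9590 genes detected overall. These 18 genes, with all their levels, are in the plot of levels by gene, and the ratios of all 52 are in the colour map. In 37 of the 52 genes more than 1 probe set was available.

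**Figure D1:**
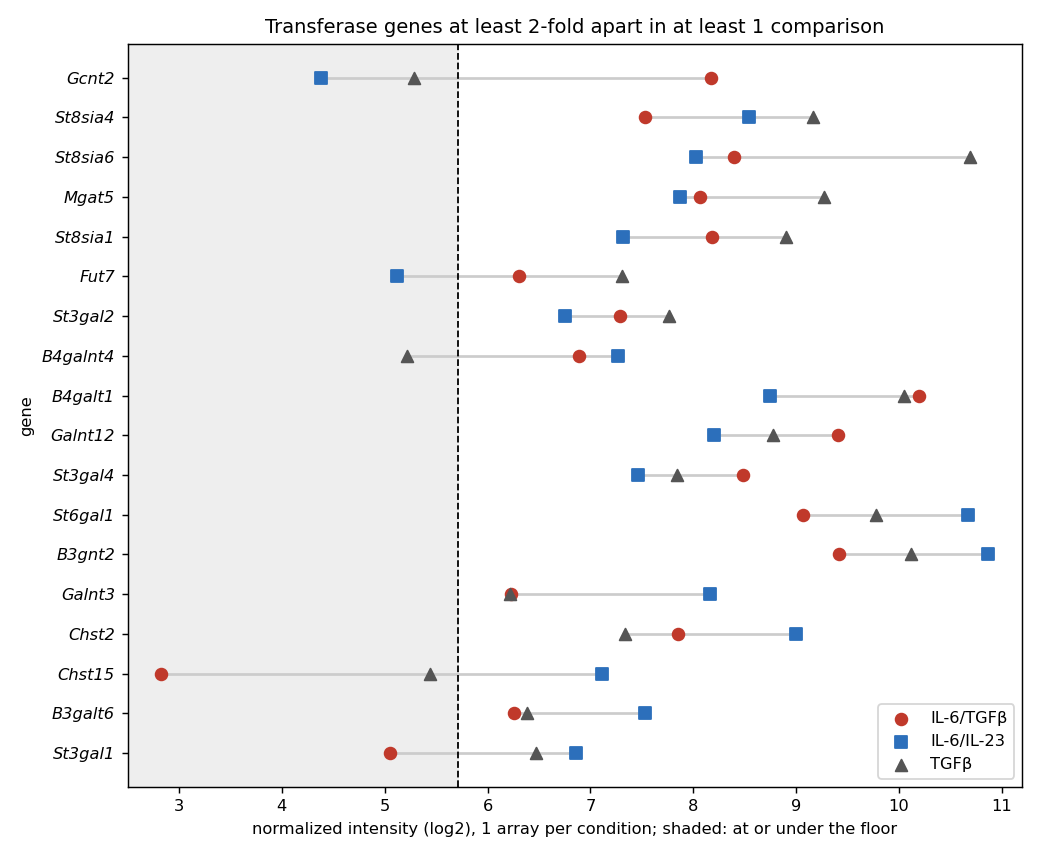
Normalized intensity (log2, x axis) of the 18 transferase genes at least 2-fold apart in at least 1 comparison, with 1 point per array: IL-6/TGFβ (red circles), IL-6/IL-23 (blue squares) and TGFβ (grey triangles). Gcnt2 is above the floor (dashed line) only with IL-6/TGFβ, St8sia6 is highest with TGFβ, and Galnt3, Chst2 and Chst15 are highest with IL-6/IL-23.

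**Figure D2:**
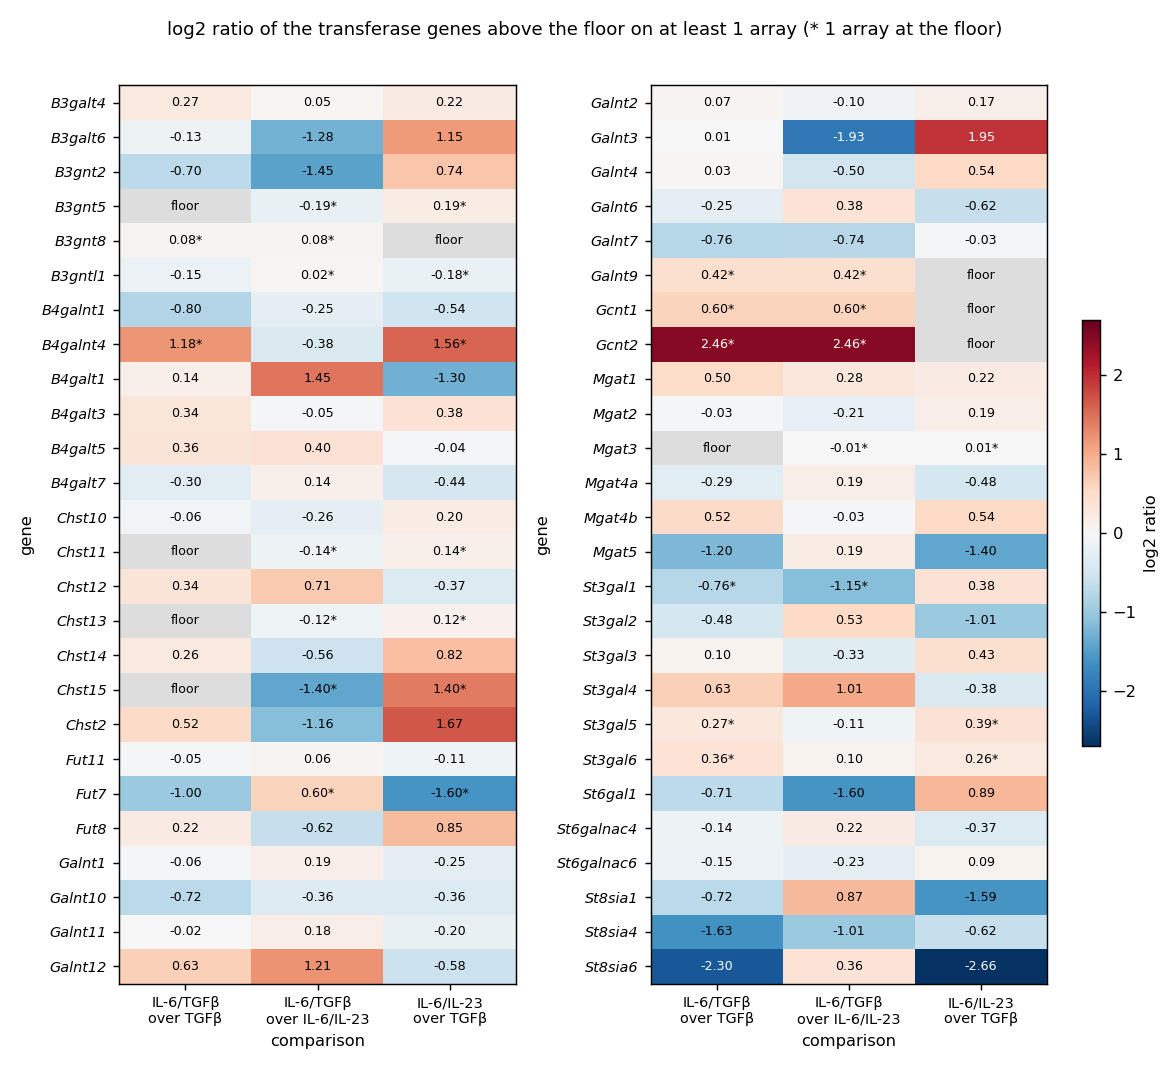
log2 ratios of the 52 transferase genes above the floor on at least 1 array, in the 3 comparisons (columns), from blue (lower in the first-named condition) to red (higher). An asterisk marks a ratio with 1 array at the floor, and grey cells have both arrays at the floor; St8sia6 holds the lowest ratio (-2.66) and Gcnt2 the highest printed value (2.46, a bound).

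IL-6/TGFβ was set against TGFβ alone, by which the study sought the genes of Th17 polarization. The sialyltransferase genes St8sia6 and St8sia4, the N-glycan branching gene Mgat5 and the fucosyltransferase gene Fut7 were lower with IL-6/TGFβ, and the branching gene Gcnt2 and the transferase gene B4galnt4 were higher. In numbers, 2 of the 52 genes were at least 2-fold higher, against 2.67% of all genes tested, and 4 were at least 2-fold lower, against 2.12%. Taken in either direction this is 6 of 52, against 4.79% of all genes. The median log2 ratio of the 52 was 0, and that of all genes 0.01. Measured on both arrays, 39 of the genes had a median absolute ratio of 0.30, against 0.22 over all genes.

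St8sia6 encodes an enzyme that adds sialic acid to sialic acid, mainly on O-glycans. Its level was 336 with IL-6/TGFβ, 261 with IL-6/IL-23 and 1653 with TGFβ. The TGFβ array stood alone and high, and both arrays with IL-6 were low and near each other. The log2 ratio of IL-6/TGFβ over TGFβ was -2.30, a 4.92-fold lower level and 10.1 times the probe-set spread. Its other readable probe sets gave -2.32 and -2.41, so all 3 lay close together.

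St8sia4 encodes a polysialyltransferase, which builds the long sialic acid chains known from neural adhesion molecules and from chemokine receptors of leukocytes. It read 185 with IL-6/TGFβ, 372 with IL-6/IL-23 and 572 with TGFβ. The ratios were -1.63 over TGFβ and -1.01 over IL-6/IL-23, so it was called lower against both. St3gal1, under the floor with IL-6/TGFβ, has only a bound over TGFβ (-0.76 or lower) and may also be 2-fold under both. Over all genes 0.688% were at least 2-fold lower in both of these comparisons, which share the IL-6/TGFβ array. A further St8sia4 probe set was under the floor with IL-6/TGFβ, at 35.9. It gave only bounds, -0.22 or lower and -0.38 or lower, so the size of the ratios is not checked by it.

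St8sia1 makes the ganglioside GD3, an early step of the complex gangliosides. Its brightest probe set read 290 with IL-6/TGFβ, 159 with IL-6/IL-23 and 478 with TGFβ, a ratio of -0.72 over TGFβ that missed the 2-fold line. Its other probe sets gave 0.28 and 0.22, of the opposite sign, so its direction in this comparison was not settled. The other 3 genes of the St8sia family were at the floor on all arrays.

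Mgat5 adds a branch to N-glycans that is extended into the lactosamine chains galectins bind, and in mice its loss lowers the threshold of T cell activation. It read 268 with IL-6/TGFβ, 234 with IL-6/IL-23 and 617 with TGFβ. With this brightest probe set, the TGFβ array was high and both arrays with IL-6 were low. Its ratio was -1.20 over TGFβ and 0.19 over IL-6/IL-23. A further probe set read 121, 60.2 and 173 in the same order, ratios of -0.52 and 1.00. It put IL-6/TGFβ between the other arrays. The other branching genes were closer together. Mgat1, which opens the route to hybrid and complex N-glycans, stood at 0.50 over TGFβ, Mgat4a at -0.29 and Mgat4b, which like Mgat4a adds another branch, at 0.52. Mgat2 gave -0.03 with its brightest probe set and -0.93 with another, and no direction can be given for it.

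Fut7 is the fucosyltransferase that completes sialyl Lewis x, the selectin-binding cap of leukocytes. It read 79.3 with IL-6/TGFβ, 34.7 with IL-6/IL-23, which is under the floor, and 159 with TGFβ. The TGFβ array was again the highest, and the gene was 2.00-fold lower with IL-6/TGFβ, at the line for a call. Only 1 probe set was available, and its levels lay near the floor. Core fucosylation is the work of Fut8, which read 205, 316 and 176 (IL-6/TGFβ, IL-6/IL-23, TGFβ) and had a ratio of 0.22 over TGFβ.

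Gcnt2 encodes the I-branching enzyme, which turns linear lactosamine chains into branched ones. It read 287 with IL-6/TGFβ, 20.9 with IL-6/IL-23 and 39.0 with TGFβ, the last 2 at the floor. The IL-6/TGFβ array was the only bright one, so the gene was at least 5.50-fold higher than on either other array. Gcnt2 was called higher in both comparisons, as were 1.33% of all genes. Gcnt1 and B3gnt8, a chain-lengthening enzyme, were also above the floor with IL-6/TGFβ alone, and their ratios are bounds that leave a 2-fold difference possible in both. Of its 8 probe sets, 4 exceeded the floor with IL-6/TGFβ and on no other array, and those other than the one used bounded the log2 ratio at 0.34 to 1.11 or more. The files do not say which of the 3 starts printed above each probe set reads.

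The related gene Gcnt1 makes the core 2 branch of O-glycans that carries selectin ligands. It too was above the floor with IL-6/TGFβ alone, at 79.1 against 33.3 with IL-6/IL-23 and 19.9 with TGFβ, which bounds the ratio at 0.60 or more in either comparison and is no 2-fold call. B4galnt4, which adds N-acetylgalactosamine to N-acetylglucosamine, read 119 with IL-6/TGFβ, 154 with IL-6/IL-23 and 37.1, under the floor, with TGFβ. Both arrays with IL-6 were thus above the TGFβ array, at least 2.27-fold with IL-6/TGFβ, on 1 probe set.

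Nearest to the 2-fold line without crossing it were B4galnt1, the enzyme of the gangliosides GM2 and GD2, at -0.80, the O-glycan starter Galnt7 at -0.76, St3gal1 at -0.76 or lower, and Galnt10, of the same O-glycan family, at -0.72. All of these lay below zero. Other O-glycan starters lay closer to zero, with Galnt1 at -0.06, Galnt2 at 0.07 and Galnt6 at -0.25. Of the O-glycan sialyltransferases St6galnac4 lay at -0.14, and St6galnac6, which acts on gangliosides, at -0.15.

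On the probe sets used, St8sia6, St8sia4, Mgat5 and Fut7 were all highest on the TGFβ array. The further St8sia4 probe set read 68.2 with IL-6/IL-23 and 60.8 with TGFβ. The summed levels of the NK cell and myeloid lists were also highest with TGFβ (251 and 282), of which Nkg7 and Mpeg1 held 230 and 153. Klrd1 and Csf1r were not highest there. Cd4 stood at 1333 with TGFβ, while the T cell sum was lowest there, at 22164. The part of these markers in the result was not tested. A floor set 2-fold higher ended the calls of B4galnt4 and Fut7. The mean of all probe sets ended that of Mgat5, and it put Gcnt2 under the floor on every array, which left no ratio. St8sia4 has no probe set without a suffix, so that setting gave it no value. Without scaling 11 genes were lower.

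**Figure D3:**
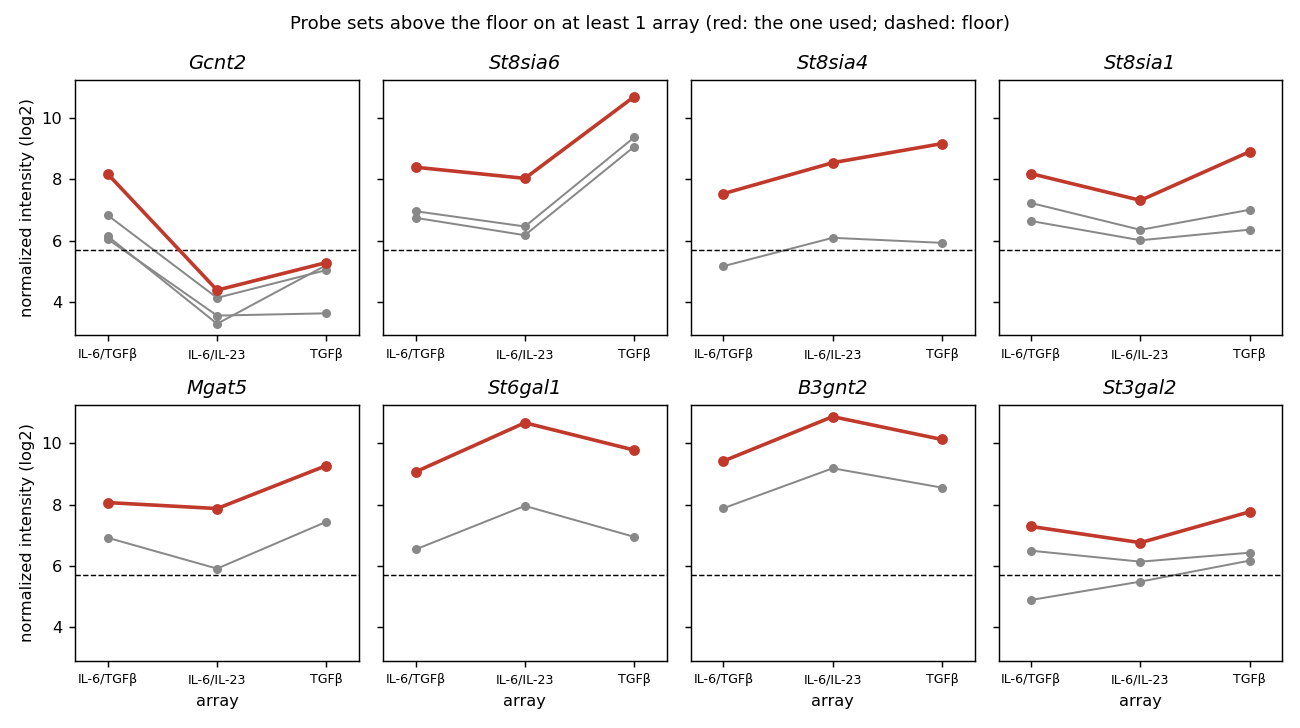
Normalized intensity (log2, y axis) of every probe set above the floor on at least 1 array, for 8 transferase genes, on the IL-6/TGFβ, IL-6/IL-23 and TGFβ arrays (x axis). Red lines are the probe set used and grey lines the others. The 3 probe sets of St8sia6 run in parallel, while those of St8sia1 differ in how the IL-6/TGFβ array compares with the TGFβ array.

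IL-6/TGFβ was next set against IL-6/IL-23, by which the study meant to set aside genes of IL-17 control and keep those of IL-10 control. Here 4 of the 52 genes were at least 2-fold higher, against 3.85% of all genes, and 8 were at least 2-fold lower, against 3.57%. The lower genes were those of the sialyltransferases St6gal1, St3gal1 and St8sia4, the chain enzymes B3gnt2 and B3galt6, the sulfotransferases Chst2 and Chst15, and the O-glycan starter Galnt3. The higher genes were B4galt1, a galactosyltransferase, Galnt12, St3gal4 and Gcnt2. Both directions together gave 12 of 52, against 7.41% of all genes. The median ratio was -0.02 for the 52 genes and -0.03 for all genes, and the median absolute ratio where both arrays measured the gene was 0.36 and 0.28. Since TGFβ and IL-23 were exchanged for each other here, their parts cannot be told apart.

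St6gal1 caps N-glycans with sialic acid in the linkage bound by CD22, which is known to hinder galectin binding. It read 536 with IL-6/TGFβ, 1624 with IL-6/IL-23 and 877 with TGFβ. The array with IL-23 was the highest and the IL-6/TGFβ array the lowest, a ratio of -1.60, and a further probe set gave -1.42. B3gnt2, the main enzyme that lengthens lactosamine chains, followed the same order at 684, 1865 and 1114. Its ratio was -1.45, with a further probe set at -1.30.

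Galnt3 starts O-glycans and is best known for protecting the hormone FGF23 from cleavage. It read 75.1 with IL-6/TGFβ, 287 with IL-6/IL-23 and 74.3 with TGFβ. Only the IL-6/IL-23 array was high, and both arrays with TGFβ were nearly equal, at a ratio of -1.93 for IL-6/TGFβ relative to IL-6/IL-23. Another starter of the same family went the other way. Galnt12 read 679 with IL-6/TGFβ, 293 with IL-6/IL-23 and 438 with TGFβ, a ratio of 1.21. Galnt1, Galnt2 and Galnt6 lay at 0.19, -0.10 and 0.38, so the family did not move as one.

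Among the sulfotransferases, Chst2 adds sulfate to N-acetylglucosamine, a feature of L-selectin ligands. It read 230 with IL-6/TGFβ, 513 with IL-6/IL-23 and 161 with TGFβ, a ratio of -1.16. Chst15 makes the doubly sulfated chondroitin sulfate E. It read 7.08 with IL-6/TGFβ, 138 with IL-6/IL-23 and 43.4 with TGFβ, under the floor except with IL-6/IL-23, which bounds the difference at 2.64-fold or more, lower on the IL-6/TGFβ array. For both genes the array with IL-23 was the highest. Chst12, which sulfates chondroitin at another position, pointed the other way at 0.71 (230 against 140), below the 2-fold line. Chst14, of dermatan sulfate, stood at -0.56, and Chst11, another chondroitin sulfotransferase, was above the floor with IL-6/IL-23 alone, at 57.6.

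B3galt6 builds the linkage that joins glycosaminoglycan chains to proteins. It read 76.4 with IL-6/TGFβ, 185 with IL-6/IL-23 and 83.5 with TGFβ, a ratio of -1.28. St3gal1 caps core 1 O-glycans of T cells with sialic acid. It read 33.1 with IL-6/TGFβ, 116 with IL-6/IL-23 and 88.8 with TGFβ, and only the first was under the floor. This bounds it at 2.22-fold lower, or more, for IL-6/TGFβ relative to IL-6/IL-23. The summed CD8 markers were also lowest on the IL-6/TGFβ array, and their part in this was not tested. For B3galt6 the IL-6/TGFβ and TGFβ arrays differed by -0.13, less than the probe-set spread.

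B4galt1, the main galactosyltransferase of lactosamine, read 1169 with IL-6/TGFβ, 429 with IL-6/IL-23 and 1060 with TGFβ. The arrays with TGFβ were near each other and the IL-6/IL-23 array was low, a ratio of 1.45 on 1 probe set. St3gal4, a sialyltransferase of selectin ligands, read 357, 177 and 230 in that order, a ratio of 1.01 at the 2-fold line. The remaining St3gal genes lay closer, with St3gal2 at 0.53, St3gal3 at -0.33, St3gal5, the GM3 synthase, at -0.11 and St3gal6 at 0.10. St8sia1 was the gene nearest to the line from below at 0.87, and here its other probe sets gave 0.63 and 0.87, of the same sign. Also short of it were Galnt7 at -0.74, with another probe set at -1.14, Fut8 at -0.62 and Fut7 at 0.60 or more.

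Median scaling ended the call of St3gal4, and a floor set 2-fold higher ended those of B3galt6, Chst15 and St3gal1. The mean of probe sets ended the call of St8sia4. It put Gcnt2, Galnt3, Chst2, Chst15, B3galt6 and St3gal1 under the floor on both arrays, so their calls ended for lack of a ratio. No scaling ended the calls of B3galt6, Chst15, Chst2, St3gal1 and St8sia4. B3gnt2, B4galt1, St3gal4 and St8sia4 have no probe set without a suffix and were not measured at that setting.

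IL-6/IL-23 set against TGFβ gave 5 of 52 genes at least 2-fold higher, against 3.60% of all genes, and 6 at least 2-fold lower, against 3.43%. This comparison shares an array with each of the other comparisons, so its values for the genes above are given beside theirs and not as separate evidence. The higher genes were Galnt3 (1.95), Chst2 (1.67), B4galnt4 (at least 2.95-fold), Chst15 (at least 2.64-fold) and B3galt6 (1.15). The lower genes were St8sia6 (-2.66, with further probe sets at -2.88 and -2.90), Fut7 (at least 3.04-fold lower), St8sia1 (-1.59), Mgat5 (-1.40, with a further probe set at -1.53), B4galt1 (-1.30) and St3gal2 (-1.01). Both directions together gave 11 of 52, against 7.03% of all genes. The median ratio was 0.01 for the 52 genes and 0.05 for all genes, and the median absolute ratio of measured genes was 0.46 and 0.27.

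St3gal2, which sialylates core 1 O-glycans and gangliosides, was called in this comparison only. It read 156 with IL-6/TGFβ, 108 with IL-6/IL-23 and 217 with TGFβ. Its further probe sets gave -0.29 and, with IL-6/IL-23 under the floor, -0.46 or lower. St8sia1, also called in this comparison only, had the same order of arrays on its brightest probe set. Its further probe sets gave -0.35 and -0.65 against -1.59. For both genes the direction was shared by all readable probe sets and the size was not. Just short of the line were St6gal1 at 0.89, Fut8 at 0.85, Chst14 at 0.82 and B3gnt2 at 0.74, all higher with IL-6/IL-23, and Galnt6 at -0.62.

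Without scaling, the median of all measured genes was -0.85 in this comparison, because the IL-6/IL-23 array is the dimmest. All 5 higher calls were then lost and 19 genes were lower, so the higher calls rest on scaling the arrays to each other. A floor set 2-fold higher ended the calls of B3galt6, B4galnt4, Chst15 and Fut7, and the mean of probe sets those of St3gal2 and St8sia1. That mean put B3galt6, Chst15, Chst2 and Galnt3 under the floor on both arrays, so they had no ratio and no call. St8sia6, Mgat5 and Fut7 were again highest on the TGFβ array, beside the marker sums given above. So were the probe sets used for St8sia1 and St3gal2, but not all their further ones. With IL-6/TGFβ and TGFβ, those of St8sia1 read 150 and 128, and 99.5 and 81.9. A further St3gal2 probe set read 90.1 and 86.2. Over the 3 comparisons 29 calls were made in the 18 genes. A further readable probe set existed for 12 calls, and its sign was the same in all 12, while 17 calls rest on 1 readable probe set. For Gcnt2 and St8sia4 the further probe sets were readable only through the brighter array. Their ratios are bounds, and their sign is no separate check of these calls.

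Of 82 further genes of surface glycan pathways listed for comparison, 73 had a probe set with 1 gene symbol here and 66 were above the floor on at least 1 array. Of these 66, 4 were called higher and 0 lower for IL-6/TGFβ over TGFβ, where 4.79% of all genes were called in either direction. The ratio over IL-6/IL-23 called 2 higher and 1 lower, against 7.41% of all genes. That of IL-6/IL-23 over TGFβ called 2 higher and 3 lower, against 7.03%. Donor synthesis held 17 detected genes, and Uap1, the last step to the donor of N-acetylglucosamine, had the lowest ratio among them. It read 606 with IL-6/TGFβ, 347 with IL-6/IL-23 and 1032 with TGFβ, which is -1.57 for IL-6/IL-23 over TGFβ, with further probe sets at -1.70 and -1.85. The fucokinase gene Fcsk had a ratio of 1.15 for IL-6/TGFβ relative to IL-6/IL-23. A further probe set, under the floor with IL-6/IL-23, gave 0.57 or more. Both the higher floor and the mean of probe sets left only a bound of 0.60 or more, which ends the call.

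Neu3, the sialidase of gangliosides at the plasma membrane, read 291 with IL-6/TGFβ, 77.4 with IL-6/IL-23 and 175 with TGFβ. Its ratio was 1.91 for IL-6/TGFβ relative to IL-6/IL-23 and -1.17 in the ratio of IL-6/IL-23 over TGFβ. Both rest on 1 probe set, whose IL-6/IL-23 level lay near the floor. With the floor set 2-fold higher, at 105, the second call ends. Of the glycoproteins that carry these chains, Selplg, the P-selectin ligand PSGL-1, read 2081, 1358 and 2218, and Spn, which encodes CD43, read 2254, 1810 and 2019 (IL-6/TGFβ, IL-6/IL-23, TGFβ), and neither was 2-fold apart. Cd44, the hyaluronan receptor, read 1673, 3504 and 3330, a ratio of -1.07 over IL-6/IL-23 and -0.99 over TGFβ. Its further readable probe sets gave -0.99 and -0.46 over IL-6/IL-23, short of the line. The mean of probe sets (-0.75) and no scaling (-0.68) ended that call. The IL-6/TGFβ array was the lowest for Cd44, as it was for St8sia4. Emb, a membrane glycoprotein gene, read 4747 with IL-6/TGFβ, 5192 with IL-6/IL-23 and 1938 with TGFβ, ratios of 1.29 and 1.42 over TGFβ.

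Among the lectins, the galectin gene Lgals3 read 143 with IL-6/TGFβ, 140 with IL-6/IL-23 and 39.2, under the floor, with TGFβ. Selp, which encodes P-selectin, likewise read 138 with IL-6/TGFβ, 102 with IL-6/IL-23 and 17.1, under the floor, with TGFβ. Both were therefore detected only in the cultures with IL-6, and the bounds for IL-6/TGFβ over TGFβ were 2.73-fold and 2.64-fold. Lgals3 has 1 probe set. Selp has 3, and those not used were under the floor on every array. A floor set 2-fold higher left bounds on the log2 ratio of 0.45 (Lgals3) and 0.40 (Selp), which ends both calls. At that floor Lgals3 also lost its call between the IL-6/IL-23 and TGFβ arrays (0.42 or more). Ust, a sulfotransferase of uronic acids, stood at 1.42 over TGFβ (250 against 93.6). Its other probe set, under the floor with TGFβ, gave 0.28 or more. Pofut2, which adds fucose to thrombospondin repeats, was called lower with IL-6/IL-23 than with TGFβ at -1.15, but its other probe sets gave -0.07 to 0.33 and its direction was not settled.

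**Figure D4:**
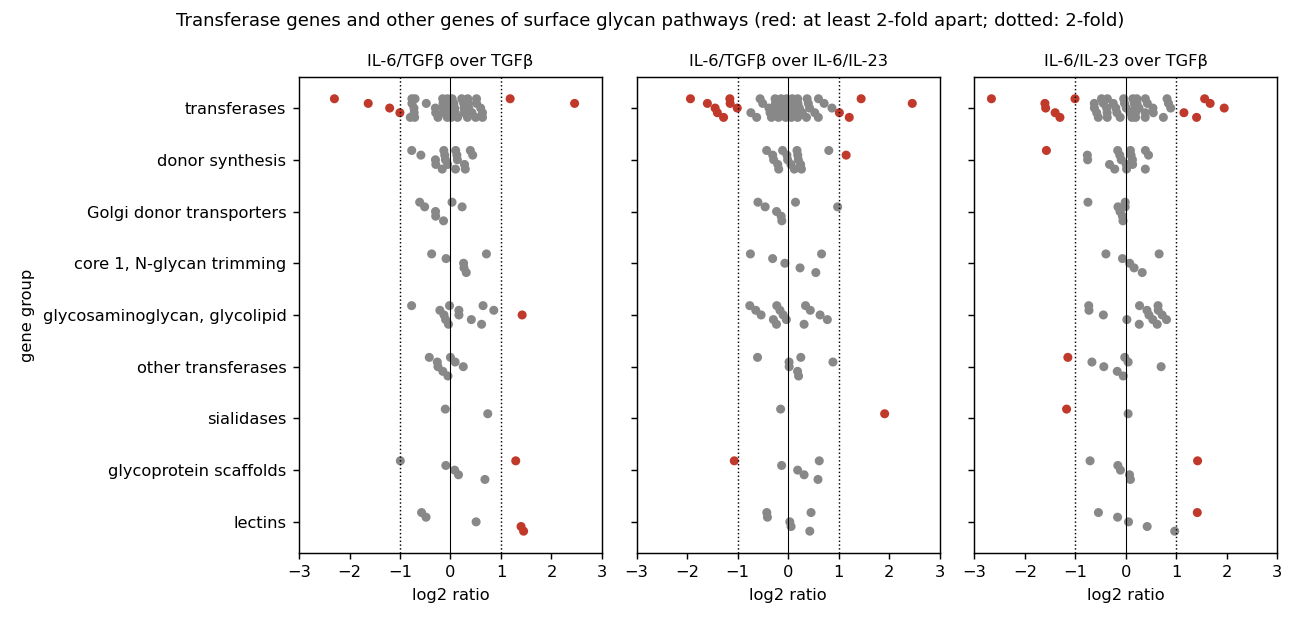
log2 ratios (x axis) of the transferase genes and of 8 groups of other surface glycan genes (rows), 1 point per gene, in the 3 comparisons; genes with both arrays at the floor are left out. Red points are at least 2-fold apart (dotted lines); the sialidase point at 1.91 is Neu3.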

How the data were processed

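The series holds 3 Affymetrix mouse arrays, 1 per culture condition, grouped by their titles. Per the labels' protocols, biotin-labelled cRNA was made from 10 µg total RNA. The authors deposited 1 linear intensity per probe set and array; how probes were summarized, corrected for background or scaled is not given in the sources used. For arrays, their number limits the precision, and there was 1 per condition.

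Of 45101 probe sets, 64 controls were left out and log2 intensities were quantile-normalized (limma 3.58.1, R 4.3.3), which removes any real difference in total signal. The platform annotation gave 34945 probe sets 1 gene symbol, 932 several and 9160 none; 34741 Entrez identifiers matched RefSeq (GRCm38.p6) and 0 symbols were renamed. The floor, 52.3, is the level that 95% of 144 probe sets for tissue-restricted genes stay under. No test was possible with 1 array per group: a gene was called at 2-fold. The mean of the deposited intensities would pick another probe set for 2 of the 99 genes, both at the floor.

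Genes were named by a rule: every transferase gene called in any comparison, listed selectin-ligand and branching enzymes, the 5 nearest below 2-fold per comparison, and pathway genes called. Genes outside this rule (B3gnt8, Chst4, Fut4, St3gal5, Selplg, Spn and markers) were chosen after their values were seen. Members, lists and tests were chosen with earlier results of these data known. Alternatives were median scaling, no scaling, a floor 2-fold lower or higher, averaging all probe sets per gene, and probe sets without the suffix _s_at, _x_at or _a_at.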

Additional observations from a re-analysis of the deposited data

How the results depend on the processing

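With 1 array per condition no replicate could be left out and no test run. No paired analysis was possible because each group has 1 array. Median scaling kept every call in IL-6/TGFβ over TGFβ (6 of 6), 11 of 12 over IL-6/IL-23 and 11 of 11 in IL-6/IL-23 over TGFβ. Without scaling, the medians of the transferase genes were -0.46, 0.31 and -0.73 in these comparisons, and those of all measured genes -0.42, 0.42 and -0.85 (-0.08, -0.21 and 0.13 with median scaling). The transferase counts were then 11 lower over TGFβ, 7 higher and 3 lower over IL-6/IL-23, 0 higher and 19 lower for IL-6/IL-23 over TGFβ, and 2 lower in IL-6/TGFβ relative to both others. Counts of other pathway genes became 8, 12 and 26. Over all genes the higher share of calls was 55.8%, 51.9% and 51.2% with quantile normalization, 44.4%, 37.4% and 53.6% with median scaling, and 15.4%, 89.1% and 2.40% without scaling.

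A floor 2-fold lower gave 5 higher over TGFβ, 8 higher over IL-6/IL-23, 8 higher for IL-6/IL-23 over TGFβ (the same count for other pathway genes there), and 3 higher and 2 lower than on both others. A floor 2-fold higher gave 1 higher over TGFβ, 5 lower over IL-6/IL-23, 2 higher for IL-6/IL-23 over TGFβ, and 2 and 3 other pathway genes in the comparisons with TGFβ. The mean of probe sets, which includes dim ones, left 33 transferase genes above the floor, 1 higher over TGFβ, 2 lower over IL-6/IL-23, 1 higher for IL-6/IL-23 over TGFβ, and 0 higher and 0 lower than on both others. Probe sets without a suffix, a setting at which B3gnt2, B4galt1, St3gal4 and St8sia4 have none and drop out, gave 2 higher over IL-6/IL-23 and 0 lower than on both others, and turned Pofut2 to 0.10 in IL-6/IL-23 over TGFβ. Genes near the floor, such as Fut7, B4galnt4, Chst15 and St3gal1, are limited by signal over background.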
